A study of Mus musculus with 10 samples.

Results

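The respiratory chain genes described here are the 108 genes of the deposited count table whose symbols name a protein of oxidative phosphorylation. Of them, 13 are mitochondrially encoded (symbols beginning mt-Nd, mt-Co, mt-Atp or mt-Cytb) and 95 are nuclear (Ndufa, Ndufb, Ndufc, Ndufs, Ndufv, Uqcr, Cox4 to Cox8 and Atp5 symbols, Sdha to Sdhd and Cyc1). The table holds 55414 genes, 121 symbols matched, and 13 of those were left out because their symbol or gene type marks a pseudogene or a non-coding RNA. The nuclear genes comprised 86 subunits and 9 assembly or associated factors (Ndufaf1 to Ndufaf8 and Atp5s). Of the 108 genes, 102 passed the filter on low counts and were tested. The libraries come from spleen macrophages taken with magnetic beads that carry an antibody to F4/80, a macrophage surface protein encoded by Adgre1. 5 libraries are from wild type mice, whose genotype label reads C57BL/6N, and 5 are from mice labelled Fpr2KO, which lack the formyl peptide receptor gene Fpr2. The labels give no age, sex, treatment or strain background for the Fpr2KO mice, and they do not say whether replicates are separate animals, so p-values measure the spread between these samples.

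Oxidative phosphorylation runs through the large complexes of the inner mitochondrial membrane. Complexes I and II pass electrons to ubiquinone, complex III passes them on to cytochrome c, complex IV hands them to oxygen, and complex V makes ATP from the proton gradient. The mitochondrial chromosome encodes core subunits of every complex except complex II. It is transcribed into long polycistronic RNAs, which are cut at the transfer RNAs between most genes. Most of the messenger RNAs are then polyadenylated. All other subunits are made from nuclear genes and imported, so each complex except complex II needs both genomes. In macrophages the balance between oxidative phosphorylation and glycolysis is known to differ between activation states.

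Totals ranged from 15865820 to 19060188 counts per library. Fpr2 had 1983 reads in the 5 WT libraries and 0 in the 5 Fpr2KO libraries, which checks the labels. Adgre1, the gene of the antigen used for isolation, stood at a mean of 524 CPM in WT (SD 60.1, n = 5) and of 525 in Fpr2KO (SD 63.4, n = 5), where CPM are reads scaled to a common library size. All 16 red pulp macrophage markers were detected, and their summed level was 9935 to 13057 CPM in WT and 10034 to 12657 CPM in Fpr2KO. Fpr2KO replicate 2 stood apart from the other 4 Fpr2KO libraries in the mitochondrially encoded genes, so the main values of these genes are given with and without it. Since these same genes singled it out, the values without it are a description and no support for a difference. Over all 14669 genes tested with edgeR's quasi-likelihood test, 10 passed a false discovery rate (FDR) of 0.05, which is 0.0682%, with 9 lower (0.0614%) and 1 higher (0.00682%) in Fpr2KO.

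The sequences of the mitochondrially encoded genes bear on how their counts can be read. Bases 6394 to 11042 of the mitochondrial chromosome (GRCm38) have a nuclear copy, annotated as a row of pseudogenes on chromosome 1 between 24611535 and 24616197. The genes mt-Co2, mt-Atp8, mt-Atp6, mt-Co3, mt-Nd3 and mt-Nd4l lie wholly within that segment, and mt-Co1 and mt-Nd4 lie partly within it. Its bounds are the outermost 31-base words shared with these pseudogenes, and the bases between the pseudogenes were not compared. Only 7.47% of the 31-base words of mt-Atp8 occur in an annotated copy (Gm10925), so the rest of mt-Atp8 was not checked. Chromosome 2 holds further annotated copies. There Gm13340 shares 45.2% of the 31-base words of mt-Co1, Gm13341 47.1% of those of mt-Co2 and Gm13339 13.5% of those of mt-Nd2. Against the copies on chromosome 1, mt-Co2 (Gm28661) had 0 mismatches over 681 bases, mt-Atp6 (Gm10925) 0 over 678, mt-Co3 (Gm28437) 0 over 783 and mt-Nd4l (Gm10222) 0 over 294. The exception was mt-Nd3 (chromosome MT, 9459 to 9806, plus strand), whose copy Gm28438 differed over 345 bases by T3C alone, counted from 1 at the first base of mt-Nd3. A read from the bases compared can therefore match both places, except where it covers that base of mt-Nd3. The first 150 bases of the pair are shown from the GENCODE M21 transcripts, 5′ to 3′, with the base that differs in capitals.
mt-Nd3: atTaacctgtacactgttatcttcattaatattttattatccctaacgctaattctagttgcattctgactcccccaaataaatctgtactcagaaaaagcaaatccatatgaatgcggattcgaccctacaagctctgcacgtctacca
Gm28438: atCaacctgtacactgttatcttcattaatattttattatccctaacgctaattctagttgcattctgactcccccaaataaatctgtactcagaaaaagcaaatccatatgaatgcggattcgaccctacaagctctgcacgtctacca
Genes of the segment also overlap one another, which makes a read of the shared bases ambiguous even without the nuclear copy. The last 43 bases of mt-Atp8 (MT, 7766 to 7969, plus strand) are also the start of mt-Atp6, and the last 7 bases of mt-Nd4l (MT, 9877 to 10173, plus strand) are also the start of mt-Nd4. Capitals mark these overlaps.
mt-Atp8: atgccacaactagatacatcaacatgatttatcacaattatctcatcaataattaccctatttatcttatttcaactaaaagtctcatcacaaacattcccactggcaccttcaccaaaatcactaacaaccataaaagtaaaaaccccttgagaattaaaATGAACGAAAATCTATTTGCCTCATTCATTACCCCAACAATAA
mt-Nd4l: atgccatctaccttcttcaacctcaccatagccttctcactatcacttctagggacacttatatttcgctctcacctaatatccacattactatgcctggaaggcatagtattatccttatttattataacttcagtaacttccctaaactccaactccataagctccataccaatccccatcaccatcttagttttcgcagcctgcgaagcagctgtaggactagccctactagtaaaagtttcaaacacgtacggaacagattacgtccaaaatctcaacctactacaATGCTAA

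Within the libraries, the 13 mitochondrially encoded genes differed widely in level. The 6 genes inside the copied segment were low, and so was mt-Nd6 outside it. Per kilobase of gene, the level in WT was 18207 ± 1923 CPM for mt-Co1 (SD, n = 5), 9363 ± 1016 for mt-Cytb, 5086 ± 358 for mt-Nd1, 3647 ± 386 for mt-Nd2, 2673 ± 275 for mt-Nd4 and 1903 ± 362 for mt-Nd5. Each neighbour in this order was separated by more than its SD. The 6 genes inside the segment reached only 4.06 (mt-Nd4l) to 66.9 CPM per kilobase (mt-Co2), although the row they form lies between the abundant mt-Co1 and mt-Nd4 on the same strand. Together these 6 held 0.224% ± 0.00976 of the mitochondrially encoded counts in WT and 0.276% ± 0.0843 in Fpr2KO. mt-Nd6, the only one of the 13 encoded on the other strand, stood at 49.7 ± 10.2 CPM per kilobase in WT. Counted only over the bases outside the segment, mt-Co1 stood at 26388 ± 2787 and mt-Nd4 at 7337 ± 754 CPM per kilobase, which assumes that no read inside the segment was counted. It also assumes that reads outside the segment match no other copy, although Gm13340 on chromosome 2 shares 45.2% of the 31-base words of mt-Co1. The treatment of reads with several matches was not stated in the sources, and its part in these levels was not tested.

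**Figure D1:**
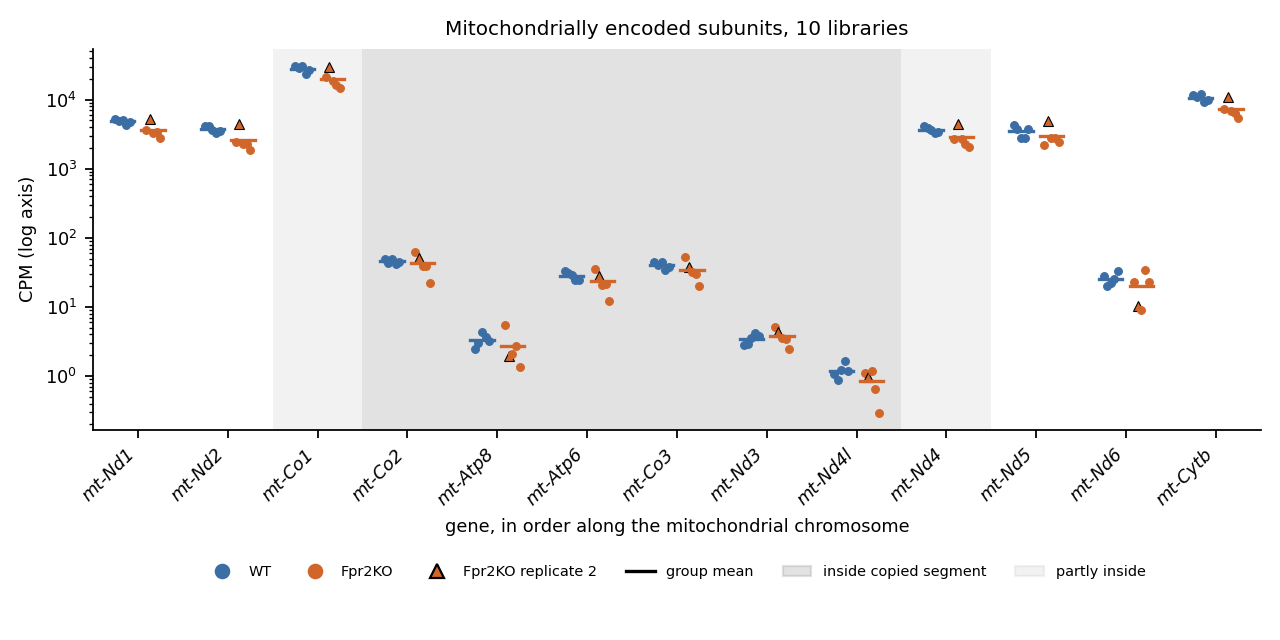
CPM (log axis) of the 13 mitochondrially encoded genes, in order along the mitochondrial chromosome, with 1 point per library, WT in blue, Fpr2KO in orange, Fpr2KO replicate 2 as a triangle and bars for group means. The dark band holds the 6 genes inside the segment copied on chromosome 1, all below 100 CPM, while mt-Co1 beside it lies between 14746 and 30835 CPM.

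None of the 13 mitochondrially encoded genes passed the FDR of 0.05 over all 10 libraries, against a background of 0.0682%. Of the 13, 12 had an estimate below 0 in Fpr2KO, where 53.2% of all genes tested lay above 0, and their median log2 fold change was -0.37 (range -0.53 to 0.14) beside 0.01 over all genes. Among the 13, 5 were lower at an unadjusted p under 0.05 (mt-Nd1, mt-Nd2, mt-Nd4, mt-Cytb and mt-Co1) and 0 were higher, where 4.92% of all genes were lower and 4.88% higher by that rule. These genes share transcripts and are not independent of one another. None had all 5 Fpr2KO libraries below all 5 WT libraries, a pattern found in 0.566% of genes, and none had all 5 above, found in 0.825%. In bulk RNA, fewer cells of a type and less RNA per cell cannot be told apart.

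Complex I takes 7 of the 13 genes. mt-Nd1 (ENSMUSG00000064341, MT, 2751 to 3707, plus strand), a core subunit of the membrane arm near the quinone site, stood at 5246, 4949, 5057, 4352 and 4732 CPM in WT replicates 1 to 5 and at 3589, 5331, 3249.9, 3448 and 2773 CPM in Fpr2KO replicates 1 to 5. In mt-Nd2 (ENSMUSG00000064345, MT, 3914 to 4951, plus strand), a proton-pumping subunit of the same arm, WT libraries held 4194, 4198, 3668, 3286 and 3579 CPM and Fpr2KO libraries 2409, 4374, 2262, 2254 and 1865 CPM. In both genes 4 of 5 Fpr2KO libraries lay below the lowest WT library, and Fpr2KO replicate 2 lay above every WT library. The log2 fold change was -0.40 (SE 0.14, FDR 0.388, edgeR quasi-likelihood) for mt-Nd1 and -0.52 (SE 0.20, FDR 0.422) for mt-Nd2. Without Fpr2KO replicate 2 they were -0.59 (FDR 0.0323) and -0.79 (FDR 0.00599). With any other single library left out, none of the 13 genes passed the FDR threshold.

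mt-Nd4 (ENSMUSG00000064363, MT, 10167 to 11544, plus strand), another proton-pumping subunit, repeated this order of libraries. Its WT values were 4187, 3914, 3671, 3275 and 3368 CPM, and its Fpr2KO values were 2727, 4426, 2654, 2319.6 and 2084 CPM. The log2 fold change was -0.37 (SE 0.17, FDR 0.507, edgeR) and -0.60 (FDR 0.0429) without Fpr2KO replicate 2. mt-Nd5 (MT, 11742 to 13565, plus strand), the pumping subunit at the far end of the arm, overlapped more, with WT values of 4257, 3809.8, 2757, 2806 and 3724 CPM and Fpr2KO values of 2239.9, 4839, 2781, 2747 and 2438 CPM. Here 3 Fpr2KO libraries lay below the lowest WT library, the highest of the 10 was again Fpr2KO replicate 2, and the log2 fold change of -0.21 (SE 0.21, FDR 0.761) missed the threshold also without that library, at -0.45 and an FDR of 0.167.

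mt-Nd6 (MT, 13552 to 14070, minus strand), the membrane-arm subunit from the other strand, went a different way among the Fpr2KO libraries. It stood at 27.7, 20.2, 21.9, 25.5 and 33.7 CPM in WT and at 22.7, 10.3, 9.10, 34.7 and 22.9 CPM in Fpr2KO. Fpr2KO replicate 2, the highest library for mt-Nd1, mt-Nd2, mt-Nd4 and mt-Nd5, was the second lowest for mt-Nd6, and Fpr2KO replicate 4 was the highest. The log2 fold change was -0.37 (SE 0.35, FDR 0.752). Because the strand setting of the counting is not given, reads of mt-Nd6 and of RNA opposite to it cannot be told apart. How much of the mt-Nd6 RNA was kept by the selection of polyadenylated RNA was not measured.

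mt-Cytb (ENSMUSG00000064370, MT, 14145 to 15288, plus strand) encodes cytochrome b, the 1 mitochondrially encoded subunit of complex III, and had the smallest FDR of all 108 genes. WT libraries held 11495, 10921, 12030.5, 9146 and 9964 CPM, and Fpr2KO libraries 7364, 11006, 6969, 6315 and 5456 CPM. Fpr2KO replicate 2 lay within the WT range and the other 4 below it. The log2 fold change was -0.53 (SE 0.16, FDR 0.289, edgeR), and -0.72 (FDR 0.023) without Fpr2KO replicate 2.

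Complex IV takes mt-Co1, mt-Co2 and mt-Co3, its catalytic core. mt-Co1 (ENSMUSG00000064351, MT, 5328 to 6872, plus strand), which binds the haem and copper centres where oxygen is reduced, held 51.3% ± 0.910 of all mitochondrially encoded counts in WT and 50.4% ± 1.86 in Fpr2KO (SD, n = 5). Its level was 30835, 28596, 30639, 23656 and 26922 CPM in WT and 21228, 29300.3, 18374, 16238 and 14746 CPM in Fpr2KO. Again 4 Fpr2KO libraries lay below all WT libraries and replicate 2 within them, with a log2 fold change of -0.49 (SE 0.16, FDR 0.342, edgeR), and -0.68 (FDR 0.0429) without replicate 2.

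mt-Co2 (MT, 7013 to 7696, plus strand), which takes electrons from cytochrome c, showed another order, with 49.1, 43.2, 49.8, 42.5 and 44.2 CPM in WT and 63.1, 50.4, 38.8, 38.8 and 22.5 CPM in Fpr2KO. Fpr2KO replicates 1 and 2 lay above all WT libraries and replicates 3 to 5 below them. The log2 fold changes of mt-Co2 and of mt-Co3 (MT, 8607 to 9390, plus strand) were -0.10 (SE 0.22, FDR 0.901) and -0.22 (SE 0.20, FDR 0.741). Complex V takes mt-Atp6, whose product forms part of the proton channel, and mt-Atp8, a small subunit of the membrane part. mt-Atp6 (MT, 7927 to 8607, plus strand) stood at 33.6, 31.1, 28.6, 24.8 and 24.5 CPM in WT and at 35.3, 28.4, 20.9, 21.3 and 12.1 CPM in Fpr2KO, a log2 fold change of -0.28 (SE 0.23, FDR 0.713). For mt-Atp8 it was -0.32 (SE 0.31, FDR 0.749), from 3.35 ± 0.708 CPM in WT and 2.70 ± 1.59 in Fpr2KO.

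The remaining complex I genes, mt-Nd3 and mt-Nd4l, lie inside the copied segment like mt-Co2, and their levels were low. mt-Nd3, whose product forms a loop near the quinone site, was the only one of the 13 with an estimate above 0, at 0.14 (SE 0.21, FDR 0.85). Its WT libraries held 2.80, 2.92, 3.51, 4.23 and 3.75 CPM and its Fpr2KO libraries 5.20, 4.37, 3.51, 3.498 and 2.47 CPM, and without Fpr2KO replicate 1 the estimate was -0.01. mt-Nd4l had 175 reads over all libraries and a log2 fold change of -0.53 (SE 0.34, FDR 0.637).

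The 6 genes inside the segment and the 7 others differed in where Fpr2KO replicate 1 stood. In 5 of the 6, Fpr2KO replicate 1 was the highest of all 10 libraries, and in none of the 7 others was it the highest. Fpr2KO replicate 5 was the lowest library in all 6 and also in most of the 7 others (3 of 5 outside the segment and 2 of 2 partly inside it). The summed level of the annotated copies on chromosome 1, those of mt-Co1 and mt-Nd4 included, was also highest in Fpr2KO replicate 1 and lowest in replicate 5. It was 196, 185, 182, 154 and 168 CPM in WT and 221, 187, 132, 128 and 84.4 CPM in Fpr2KO. Single copies could differ from their gene. Gm28438 had a log2 fold change of -0.56 against 0.14 for mt-Nd3, and Gm10222 0.22 against -0.53 for mt-Nd4l. Gm28661, Gm10925 and Gm28437 had estimates below 0 like their genes. The median log2 fold change was -0.25 over the 6 genes and -0.40 over the 7 others, a contrast that rested on single libraries. Without Fpr2KO replicate 1 these medians were -0.45 and -0.43, without Fpr2KO replicate 2 -0.25 and -0.60, and without Fpr2KO replicate 5 -0.09 and -0.40. Whether reads of the 6 genes come from the mitochondrial chromosome or from its nuclear copy cannot be told apart from counts. For mt-Atp8, most of the gene was not compared with that copy.

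**Figure D2:**
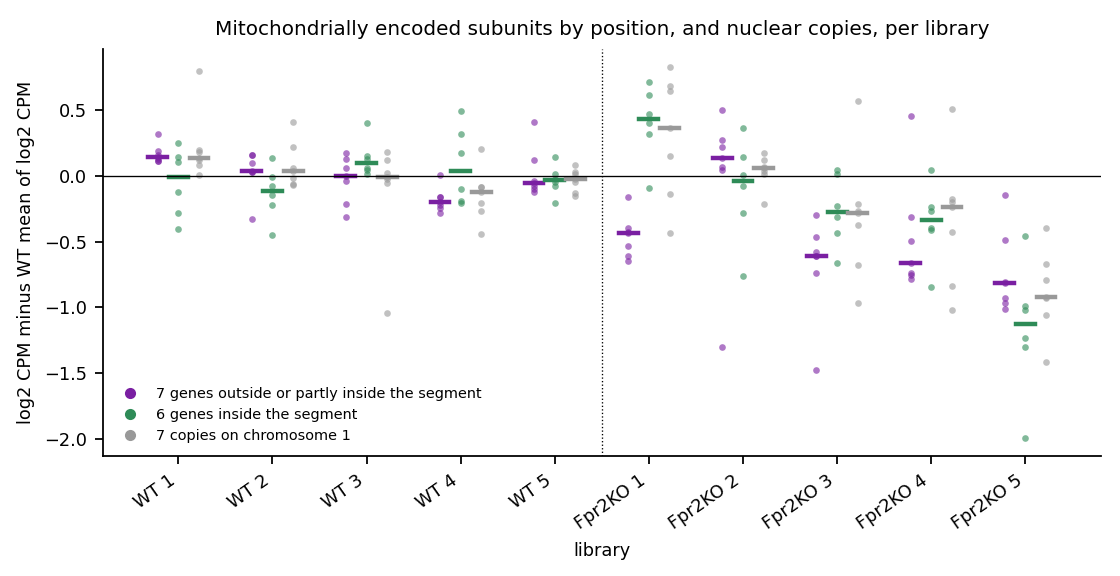
log2 CPM of each gene minus its mean over the 5 WT libraries, per library, for the 7 mitochondrially encoded genes outside or partly inside the copied segment, the 6 inside it and the 7 pseudogene copies on chromosome 1, with points for genes and bars for medians. In Fpr2KO replicate 1 the genes inside the segment and the copies lie mostly above 0 and the 7 other genes below 0, while in replicate 5 all 3 sets lie below 0.

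The mitochondrial ribosomal RNA genes, encoded upstream of mt-Nd1 on the same strand, did not share the lower estimate. mt-Rnr1 stood at 474 ± 28.8 CPM in WT and 482 ± 152 in Fpr2KO, a log2 fold change of 0.02 (SE 0.17, FDR 0.975), and mt-Rnr2 at 807 ± 106 and 809.5 ± 217 CPM, a log2 fold change of 0.00 (SE 0.16, FDR 0.995). Their share of counts was highest in Fpr2KO replicate 2, at 0.184%, against 0.0947% to 0.134% in the other Fpr2KO libraries and 0.108% to 0.138% in WT. Libraries were made from polyadenylated RNA, so these values describe the ribosomal RNA that such a selection keeps. The difference between these genes and the protein-coding ones was not tested.

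The nuclear subunits stood on the other side of 0. Of the 80 tested, 71 had an estimate above 0, beside 53.2% of all genes, with a median log2 fold change of 0.13 (range -0.05 to 0.87). None passed the FDR of 0.05 in edgeR's test (background 0.0682%), none had an unadjusted p under 0.05 in either direction (4.88% of genes higher and 4.92% lower), and none had all 5 Fpr2KO libraries above all WT libraries (background 0.825%). Without Fpr2KO replicate 2, 22 of the 80 were higher at an unadjusted p under 0.05, where 9.29% of all genes were, and without WT replicate 4 it was 16, where 7.15% of all genes were. With any other single library left out it was 0 to 3, where 3.21% to 4.8% of all genes were. The smallest FDR among the 80 was 0.524 with all libraries. The median by complex was 0.15 for complex I (37 tested), 0.09 for complex II (4), 0.08 for complex III (9), 0.14 for complex IV (14) and 0.10 for complex V (16), and 0.09 for the 9 assembly and associated factors. DESeq2 also called 0 of them.

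**Figure D3:**
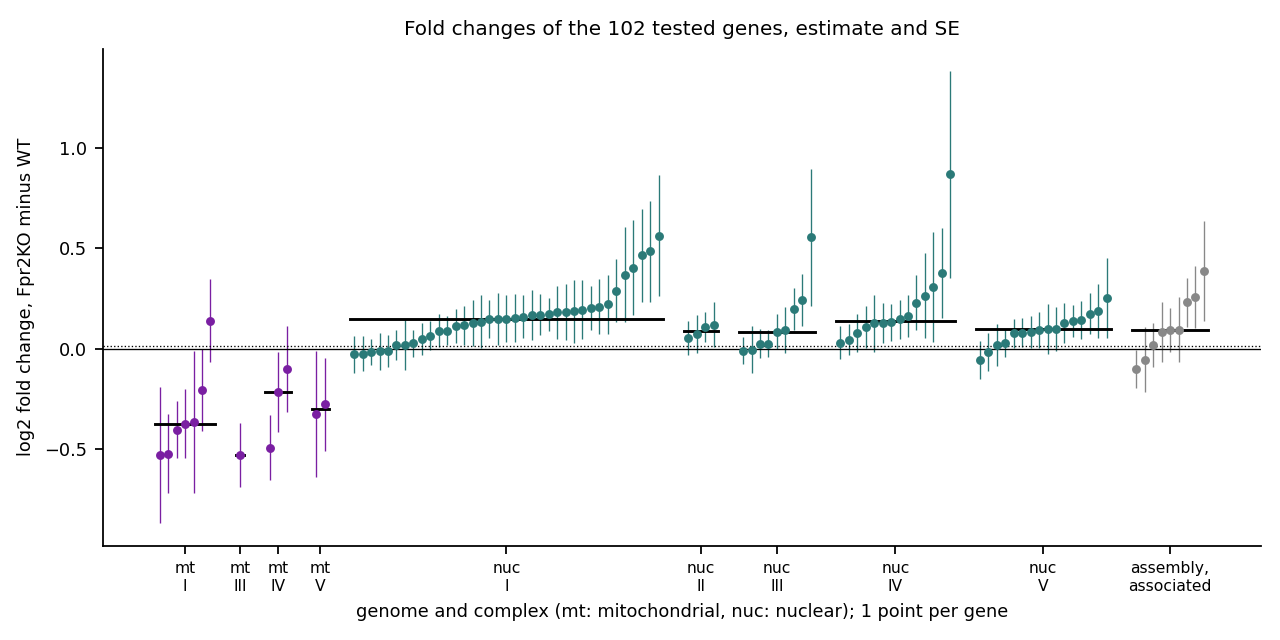
log2 fold change of Fpr2KO against WT for the 102 tested genes, with SE bars, grouped by genome and complex and sorted within each group, where black bars are group medians and the dotted line is the median of all genes tested. Of the mitochondrially encoded genes 12 of 13 lie below 0, and of the nuclear subunits 71 of 80 lie above 0.

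In complex I the smallest p belonged to Ndufa4 (ENSMUSG00000029632, chromosome 6, 11900292 to 11907497, minus strand), a gene named after complex I whose product is now counted with complex IV. It held 52.3, 52.3, 49.3, 58.1 and 49.6 CPM in WT and 68.1, 56.6, 58.0, 59.97 and 51.9 CPM in Fpr2KO, with a log2 fold change of 0.17 (SE 0.08, FDR 0.524). Ndufa1 (chromosome X, 37187588 to 37191163, minus strand), a small accessory subunit needed for assembly, held 15.9, 14.97, 21.6, 22.7 and 17.9 CPM in WT and 36.7, 14.8, 20.3, 34.4 and 22.4 CPM in Fpr2KO. Its estimate of 0.47 (SE 0.23, FDR 0.542) came with Fpr2KO replicates 1 and 4 above all WT libraries and replicate 2 below them. Ndufb3, chosen after its values were seen, had the largest estimate of complex I at 0.56 (SE 0.30, FDR 0.572). Its 3 highest libraries were Fpr2KO 4 (28.4 CPM), Fpr2KO 1 (27.3 CPM) and WT 4 (24.2 CPM). Per kilobase of joined exons, the highest level was that of Ndufb11 (chromosome X), an accessory subunit of the membrane arm, at 56.98 CPM in WT, a rank that it lost to Ndufa7 (74.2 CPM) per kilobase of the longest transcript, with a log2 fold change of 0.17 (SE 0.10). Among the assembly factors, Ndufaf7, a methyltransferase that acts on a complex I subunit, and Ndufaf2 had estimates of -0.10 (SE 0.09, FDR 0.739) and -0.06 (SE 0.16, FDR 0.936), and 65.1% of the 31-base words of Ndufaf2 also occur in other annotated genes.

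Complex II, succinate dehydrogenase, is built from 4 nuclear genes alone, and all 4 had estimates above 0 (0.05 to 0.12). Sdhb (ENSMUSG00000009863, chromosome 4, 140961203 to 140979193, plus strand), the iron-sulphur subunit, held 71.7, 71.9, 64.9, 67.6 and 68.6 CPM in WT and 80.9, 78.7, 73.2, 74.1 and 64.7 CPM in Fpr2KO. Here 4 of 5 Fpr2KO libraries, replicate 2 among them, lay above every WT library and replicate 5 below, a log2 fold change of 0.11 (SE 0.07, FDR 0.658). Sdhd, a membrane anchor of the complex, held 60.6 ± 8.59 CPM in WT and 65.9 ± 8.72 in Fpr2KO, and its estimate was 0.12 (SE 0.11, FDR 0.735).

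In complex III, Cyc1 (ENSMUSG00000022551, chromosome 15, 76343523 to 76346260, plus strand), which encodes the haem protein cytochrome c1, held 40.5, 49.6, 51.9, 52.9 and 42.9 CPM in WT and 55.2, 43.1, 55.1, 60.7 and 58.2 CPM in Fpr2KO. All Fpr2KO libraries but replicate 2 lay above the highest WT library, and the log2 fold change was 0.20 (SE 0.10, FDR 0.56). Uqcrq, a small subunit, had an estimate of 0.24 (SE 0.13, FDR 0.562). Uqcrc2, a core subunit, and Uqcrb, a ubiquinone-binding subunit, had the estimates nearest 0 from below, at -0.01 (SE 0.07) and -0.0042 (SE 0.12). Uqcrh, the hinge subunit, had the highest level of the complex per kilobase, 88.6 CPM in WT, and an estimate of 0.08 (SE 0.09).

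In complex IV the nuclear subunits with tissue isoforms showed which isoforms these macrophage preparations carry. Cox4i1, Cox6a1, Cox6b1, Cox7a2, Cox7b and Cox8a, the widely expressed forms, stood at 131, 118, 112, 48.0, 39.9 and 99.7 CPM per kilobase in WT. Cox4i2, the lung form, Cox6a2, the heart and muscle form, and Cox6b2, the testis form, made up 1.59%, 1.48% and 1.52% of the summed level of their pair in WT, or 0.851%, 1.31% and 2.48% per kilobase of the longest transcript. Cox7a1, the heart and muscle form, had 36 reads in all libraries together and was not tested. For Cox7b2, Cox8b and Cox8c 0 reads were counted in 10 libraries, which allows up to 0.0173 CPM over all libraries, counting error only. Ndufa4l2, the hypoxia-related relative of Ndufa4, had 55 reads, and the second gene entry named Atp5o had 0.

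The largest estimate of all 102 genes was that of Cox6a2 (chromosome 7, 128205435 to 128206387, minus strand), at 0.87 (SE 0.51, FDR 0.609). It rested on few reads, with 1.21, 0.810, 1.52, 1.43 and 1.08 CPM in WT and 2.54, 0.364, 0.773, 4.65 and 2.67 CPM in Fpr2KO. Fpr2KO replicates 1, 4 and 5 were above all WT libraries and replicates 2 and 3 below all of them. Cox6b2 and Cox4i2 had estimates of 0.38 (SE 0.22, FDR 0.609) and 0.31 (SE 0.27, FDR 0.726). Those of Cox8a, Cox6a1, Cox6b1, Cox7b, Cox7a2 and Cox4i1 were 0.26, 0.17, 0.15, 0.13, 0.11 and 0.08, with FDRs from 0.633 to 0.812. Cox7a2l, a relative of Cox7a2 known for joining complexes III and IV into supercomplexes, had the highest level among the nuclear subunits per kilobase of joined exons, 170.4 CPM, and an estimate of 0.03 (SE 0.08). Per kilobase of the longest transcript it stood at 223 CPM, below Cox4i1 (265 CPM) and Atp5b (239 CPM).

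In complex V the smallest p belonged to Atp5g3 (ENSMUSG00000018770, chromosome 2, 73908447 to 73911326, minus strand), 1 of 3 genes for the same c subunit of the rotor. It held 98.8, 106, 101, 116 and 95.4 CPM in WT and 120.3, 110.2, 113, 123 and 104 CPM in Fpr2KO, with a log2 fold change of 0.14 (SE 0.08, FDR 0.581). Of the summed level per kilobase of the c subunit genes, Atp5g3, Atp5g2 and Atp5g1 gave 49.9%, 42.3% and 7.79% in WT and 49.9%, 42.0% and 8.07% in Fpr2KO, a difference that was not tested. Per kilobase of the longest transcript the WT shares were 55.3%, 41.2% and 3.55%. The share of Atp5g1 rests on its annotated length, with 4912 bases of joined exons against 2181 for Atp5g3 and 1675 for Atp5g2. In reads over all libraries, Atp5g3, Atp5g2 and Atp5g1 held 18891, 12254 and 6770. In other genes, 40.2% of the 31-base words of Atp5g2 and 14.1% of those of Atp5g1 also occur. Atp5g1 and Atp5g2 had estimates of 0.19 (SE 0.13) and 0.13 (SE 0.10). Atp5h, a subunit of the peripheral stalk, stood at 0.17 (SE 0.10, FDR 0.606). Atp5mpl and Atp5l, small membrane subunits, had the estimates below 0 with the smallest p in this complex, -0.05 (SE 0.09) and -0.015 (SE 0.09). Atp5a1, the alpha subunit of the catalytic head, had the highest level of the complex per kilobase of joined exons, 146.8 CPM, and an estimate of 0.08 (SE 0.07). Per kilobase of the longest transcript Atp5b, the beta subunit, stood above it.

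Across libraries the nuclear subunits shared an order that did not follow the genotype. Of the 80 tested, 47 were highest in Fpr2KO replicate 1, 19 in Fpr2KO replicate 4 and 9 in WT replicate 4, and 27 were lowest in Fpr2KO replicate 2 and 17 in WT replicate 1. The median deviation from the mean of all libraries, in log2 CPM, was -0.17, -0.12, 0.00, 0.13 and -0.14 in WT and 0.27, -0.17, 0.03, 0.18 and -0.01 in Fpr2KO. The groups overlapped, and Fpr2KO replicate 2 lay at the level of WT replicate 1. Without Fpr2KO replicate 1 the median log2 fold change of the nuclear subunits was 0.07, and without WT replicate 4 it was 0.18.

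Transcript length moved with this order. Nuclear subunit genes are mostly short, and the tested ones whose longest transcript is under 700 bases had a median log2 fold change of 0.19 (17 genes), against 0.15 for 700 to 1000 bases (21), 0.09 for 1000 to 2000 bases (25) and 0.08 for over 2000 bases (17). Other protein-coding genes of the same lengths had medians of 0.10, 0.09, 0.07 and 0.00, and 66.2%, 72.5%, 66.6% and 48.5% of them lay above 0. In a fit with an offset for length and GC content, chosen after the data were seen, 58 of 80 nuclear subunits lay above 0 and their median was 0.06, while the median of the mitochondrially encoded genes stayed between -0.44 and -0.34 in every fit over all 10 libraries. That offset removes length and GC content together, so the part of length alone was not measured. Subunits over 2000 bases also had median deviations of 0.12 in WT replicate 4, 0.17 in Fpr2KO replicate 1 and -0.17 in Fpr2KO replicate 2. All protein-coding genes over 2000 bases had medians between -0.03 and 0.03 in every library. Length here is that of the longest annotated transcript, for example 4435 bases for Ndufb7 and 3038 for Cox6c. Which transcripts the libraries held was not measured, so these classes are not matched for the length of the RNA present. The part of length in the values of this class was not tested.

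**Figure D4:**
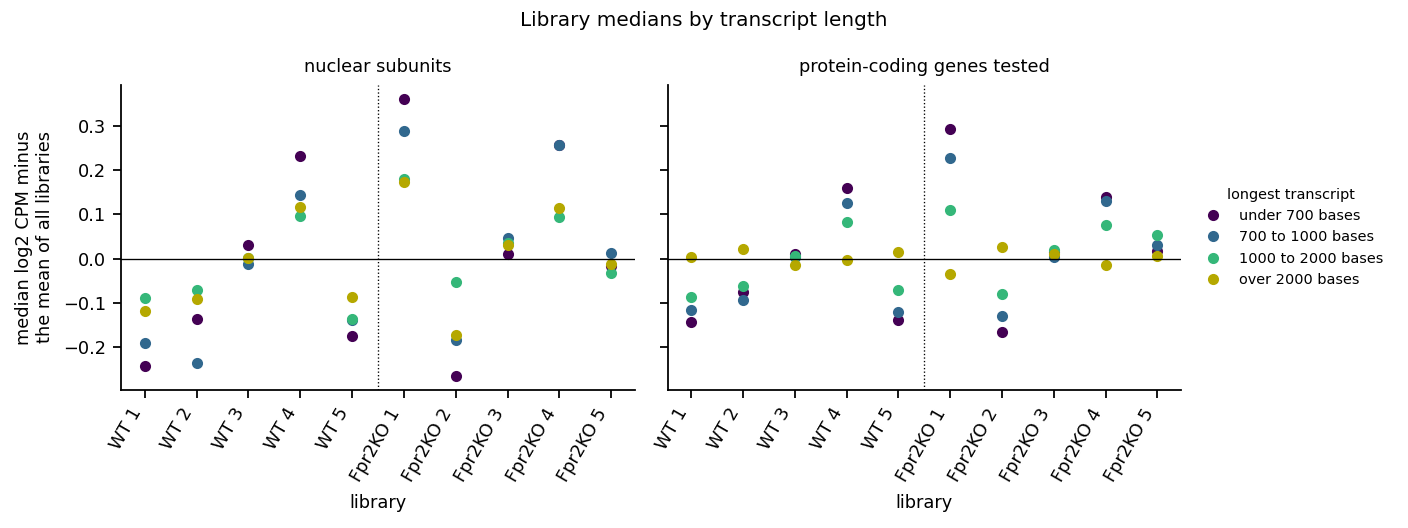
Median log2 CPM minus the mean of all libraries, per library, for nuclear subunits (left) and for all protein-coding genes tested, subunits included (right), in 4 classes of longest transcript. Fpr2KO replicates 1 and 4 and WT replicate 4 lie above 0 for the shorter classes in both panels, and Fpr2KO replicate 2 and WT replicates 1 and 5 below 0.

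The genomes were then compared within each library, first as shares of all its counts, which also depend on every other gene. Ratios of the genomes to each other followed, where library size plays no part. Mitochondrially encoded genes made up 5.95%, 5.61%, 5.496%, 4.71% and 5.14% of counts in WT and 3.85%, 5.85%, 3.72%, 3.46% and 3.13% in Fpr2KO. Nuclear genes of the set made up 0.500%, 0.513%, 0.521%, 0.608% and 0.505% in WT and 0.626%, 0.503%, 0.577%, 0.629% and 0.586% in Fpr2KO. So 4 Fpr2KO libraries lay below the lowest WT library for the mitochondrial share, and WT replicate 4 lay nearest to them in both shares. The mean difference in the mitochondrial share was -1.38 percentage points, and -1.84 without Fpr2KO replicate 2. The log2 ratio of mitochondrially encoded to nuclear subunit counts was 3.57 ± 0.27 in WT and 3.02 ± 0.52 in Fpr2KO for complex I, 4.26 ± 0.21 and 3.62 ± 0.44 for complex III, 4.77 ± 0.26 and 4.14 ± 0.47 for complex IV, and -5.96 ± 0.22 and -6.40 ± 0.54 for complex V (SD, n = 5 each). In complexes I, III and IV, all Fpr2KO libraries but replicate 2 lay below the lowest WT library. The differences of -0.55, -0.64, -0.64 and -0.44 became -0.78, -0.83, -0.84 and -0.55 without Fpr2KO replicate 2, and that of complex V was -0.24 without Fpr2KO replicate 5. They are given with no test because the genes were chosen with earlier results known. Both mitochondrially encoded genes of complex V, the only complex with a log2 ratio below 0, lie in the copied segment. The mitochondrially encoded counts of complex III are those of mt-Cytb alone. Those of complex IV were nearly all mt-Co1, at a mean of 28130 of 28216 CPM in WT.

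**Figure D5:**
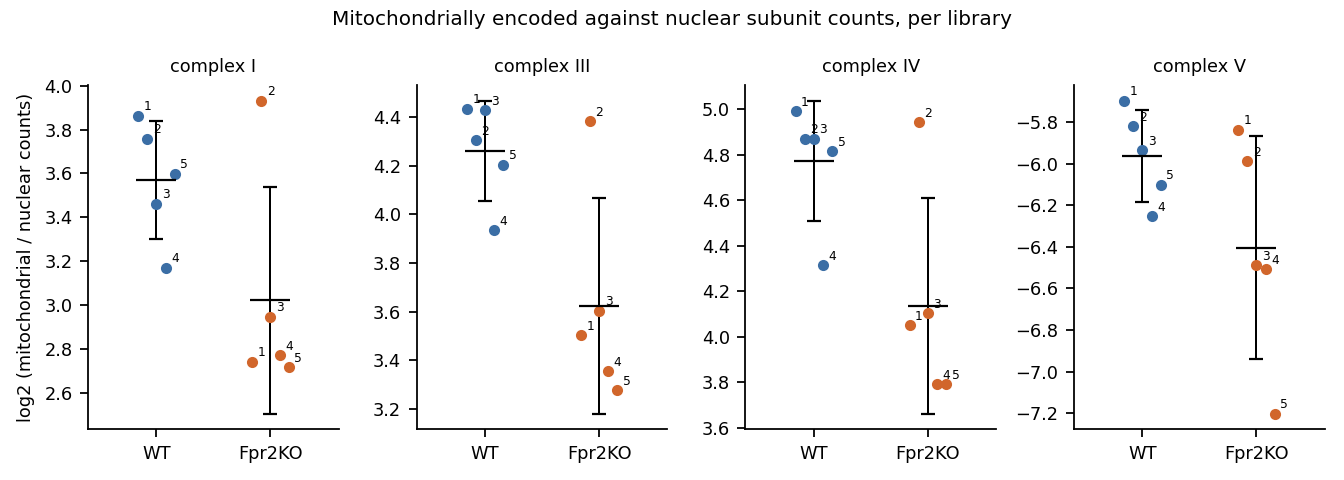
log2 of mitochondrially encoded over nuclear subunit counts in complexes I, III, IV and V, with 1 point per library numbered by replicate and black bars for mean and SD, each panel on its own axis. In complexes I, III and IV, Fpr2KO replicate 2 lies among the WT libraries or above them, and the other 4 Fpr2KO libraries lie below. In complex V, Fpr2KO replicates 1 and 2 lie within the WT range and replicates 3 to 5 below it.

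Without Fpr2KO replicate 2, 5 of the 13 mitochondrially encoded genes passed the FDR of 0.05 in edgeR's test and were lower in Fpr2KO (mt-Nd1, mt-Nd2, mt-Nd4, mt-Cytb and mt-Co1), with 0 of the nuclear genes. In that fit 26 of 14923 genes passed (0.174%), of which 20 were lower (0.134%), so these 5 were part of a longer list of calls. Each of the 10 libraries was left out in turn, and the labels give no ground to prefer the fit without this one. This library was singled out by the same genes, so these 5 calls are no independent support for a difference. With any other single library left out, 0 of the 13 passed.

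Other genes that serve the same complexes were read from the same fit, and none passed the FDR of 0.05 in any list. Of 43 other assembly factors tested, 37 had estimates above 0 (median 0.09), among them Pet100 (0.49, SE 0.20, FDR 0.447) and Cox17 (0.21, SE 0.10, FDR 0.496), which serve complex IV assembly. Of 78 mitochondrial ribosomal protein genes, 67 lay above 0 (median 0.10), and of 23 import genes 21 (median 0.13). Of 40 genes of mitochondrial DNA and RNA handling, 31 lay above 0 (median 0.05), with Slirp, which binds mitochondrial messenger RNA, at 0.37 (SE 0.15, FDR 0.437). Carriers and shuttles gave 23 of 35 above 0 (median 0.04), mitophagy genes 8 of 13 (median 0.07), transcriptional regulators 5 of 16 (median -0.05), and the mitochondrial ribosomal and transfer RNA genes 3 of 5 tested (median 0.00). Among regulators and transcription factors, chosen after their values were seen, Tfam, Polrmt, Lrpprc, Nrf1 and Ppargc1a had estimates of 0.04, 0.01, -0.0028, -0.06 and -0.05, with FDRs from 0.856 to 0.993.

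Markers of other cells lay mostly on one side of 0 in the same comparison. All 22 erythroid markers had estimates above 0 (median 1.64), with summed levels of 1732 to 6812 CPM in WT and 4908 to 11483 CPM in Fpr2KO, and all 22 cell cycle genes (median 0.46), with 644 to 1010.3 and 925 to 1175 CPM. All 17 neutrophil markers lay below 0 (median -0.63, 995 to 1631 and 574 to 1032 CPM), as did all 10 classical monocyte markers (median -0.67, 1483 to 2004 and 1119 to 1386 CPM) and all 11 platelet markers (median -0.51, 79.4 to 104 and 65.6 to 85.9 CPM). Of the immediate early genes 17 of 19 lay below 0 (median -0.35, 16298 to 24169 and 13377 to 17143 CPM). B cell markers gave 12 of 12 above 0 (median 0.21, 2887 to 4390.3 and 3737 to 5017 CPM), T cell markers 13 of 15 (median 0.27, 166 to 220 and 199 to 217 CPM) and red pulp macrophage markers 9 of 16 (median 0.03). None of these passed the FDR. Fpr2KO replicate 2, high in mitochondrially encoded genes, had 10811 CPM of erythroid and 1175 CPM of cell cycle genes, close to or above the other Fpr2KO libraries. Their part in the results was not tested.

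The start regions of nuclear genes were searched for motifs through which respiratory genes are classically regulated. Whether the estimates differ between genes with and without a motif was not tested. RefSeq windows of 300 bases (250 before to 50 after the start, GRCm38.p6) were available for 76 of 94 nuclear symbols, and motifs were searched on both strands. The motif of nuclear respiratory factor 1 (NRF1) occurred in 19 of 76 (25%), against 5.19% of all 27025 genes with a window. YY1 (AAGATGGC) occurred in 11 (14.5% against 3.19%), the ETS motif of GABP (CCGGAAGT) in 5 (6.58% against 4.31%) and the ERR motif (TCAAGGTCA) in 2 (2.63% against 0.466%). The NRF1 motif was found in 9 of 40 genes of complex I (assembly factors included), 2 of 3 of complex II, 1 of 5 of complex III, 1 of 13 of complex IV and 6 of 15 of complex V. Both ERR matches, in Sdhd and Atp5g3, stood in windows that also hold the NRF1 motif, without overlap between the matches. A match is a description of letters and not a site of binding. The background of all genes with a window was not matched for expression or GC content. Capitals mark the NRF1 matches, on either strand, in Sdhd (chr9:50603800-50604099, minus strand), in Atp5g3 (chr2:73911277-73911576, minus strand) and in Cox6a1 (chr5:115348909-115349208, minus strand), the 1 complex IV gene with a match.
Sdhd: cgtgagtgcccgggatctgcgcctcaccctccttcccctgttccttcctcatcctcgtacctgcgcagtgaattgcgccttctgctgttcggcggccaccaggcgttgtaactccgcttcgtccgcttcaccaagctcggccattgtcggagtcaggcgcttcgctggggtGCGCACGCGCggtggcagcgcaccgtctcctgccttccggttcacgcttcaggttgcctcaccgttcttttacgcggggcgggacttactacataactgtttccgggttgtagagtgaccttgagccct
Atp5g3: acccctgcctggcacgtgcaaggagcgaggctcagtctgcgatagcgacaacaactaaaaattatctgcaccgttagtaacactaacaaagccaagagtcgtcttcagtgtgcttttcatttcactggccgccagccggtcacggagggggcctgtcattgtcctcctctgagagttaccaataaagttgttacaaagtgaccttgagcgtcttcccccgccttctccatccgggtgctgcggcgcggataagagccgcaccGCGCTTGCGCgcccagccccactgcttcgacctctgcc
Cox6a1: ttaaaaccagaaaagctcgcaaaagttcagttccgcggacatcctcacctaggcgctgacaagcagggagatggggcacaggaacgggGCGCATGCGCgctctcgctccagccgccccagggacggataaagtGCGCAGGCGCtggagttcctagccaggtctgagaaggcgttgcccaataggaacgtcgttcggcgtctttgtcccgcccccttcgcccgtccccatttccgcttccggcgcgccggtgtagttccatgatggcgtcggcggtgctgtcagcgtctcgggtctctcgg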

How the data were processed

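Per the labels' protocols, a Qiagen RNeasy kit gave the RNA of splenic macrophages, and polyadenylated RNA went into NEBNext Ultra II libraries. The authors deposited raw read counts per Ensembl gene, with no normalization. The submitters' processing notes name HTSeq 0.10.0, FastQC 0.10.1 and the builds mm10 and GRCm38. Not given in the sources used here are the aligner, the strand setting, the treatment of reads with several matches and the annotation release. GENCODE M21 matched 52133 of 55414 identifiers, and the other 3281 held 0.0564% to 0.135% of counts.

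Counts were tested in R 4.3.3 with edgeR 4.0.16 (filterByExpr, TMM, robust quasi-likelihood fit, two-sided, no covariate), with Benjamini-Hochberg adjustment over 14669 genes and a threshold of 0.05. limma 3.58.1 (voom) and DESeq2 1.42.0 served as alternatives. CPM used TMM-scaled library sizes, and levels between genes were compared per kilobase of joined exons. Library deviations used log2 CPM with a prior count of 2. Scripts were tested on simulated data. Each of 20 within-group pairs differed beyond sampling noise (chi-square per degree of freedom 11.2 to 60.9). A floor of 3 counts bounded genes with 0 reads. Same-numbered libraries correlated at -0.105, 0.291, -0.103, 0.25 and -0.239, so the numbers were not taken as pairs. No other per-sample columns were present.

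The genes of the set, the lists and the tests were chosen with earlier results of these data known. Named genes were all 13 mitochondrially encoded genes and, per complex, up to 2 nuclear genes with the smallest p in each direction, the highest level per length, the genes with tissue isoforms, and up to 3 per list by p in each direction. Others are said to be chosen after their values were seen.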

Additional observations from a re-analysis of the deposited data

Results flagged for a closer look

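In 168 groups of 5 values that were looked at, 12 had 1 library farther from the other 4 than the Dixon criterion allows for its group's range, and chance flags about 1 in 20 groups. Most were Fpr2KO replicate 2, and they share reads. It held 4373.55 CPM of mt-Nd2 (the other Fpr2KO libraries 1865 to 2409), 4425.69 CPM of mt-Nd4 (2084 to 2727) and 4839.4 CPM of mt-Nd5 (2239.9 to 2781). Its summed mitochondrially encoded complex I level was 18985.6 CPM (9186 to 10994) and its mitochondrially encoded share of counts 5.85335% (3.13% to 3.85%). Its ratio of mitochondrially encoded to nuclear subunit counts was 11.8215 (5.42 to 6.55), with log2 ratios of 3.93032 in complex I (2.72 to 2.95) and 4.942 in complex IV (3.79 to 4.10). The median deviation of its assembly and associated factors was -0.125947 in log2 CPM (0.06 to 0.12 in the other Fpr2KO libraries). Fpr2KO replicate 1 stood apart for Cox7a2l, at 290.904 CPM (238 to 253). WT replicate 4 stood apart for the nuclear share of counts, at 0.608398% (0.500% to 0.521% in the other WT libraries), and for the complex IV log2 ratio, at 4.31434 (4.82 to 4.99).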

How the results depend on the processing

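Nuclear genes past the FDR of 0.05 numbered 0 in all 20 alternatives, and mitochondrially encoded ones 0 in 19, with the exception of leaving out Fpr2KO replicate 2 (0 to 5 over single libraries left out). DESeq2 gave the smallest FDR of a mitochondrially encoded gene among the fits with all libraries, 0.0726. The count over all genes, 10 in the reported fit, was 62 with no filter (26 higher, 36 lower), 5 with a strict filter (4 lower), 185 with DESeq2 (89 higher, 96 lower), and 8 to 51 with single libraries left out (0 to 34 higher, 8 to 20 lower), with 51 without WT replicate 5, 26 without WT replicate 4 and 26 without Fpr2KO replicate 2. With the replicate number as a block, 64 genes passed (13 higher, 51 lower), none of them in the set, although 7 nuclear subunits were then higher at an unadjusted p under 0.05 (5.62% of all genes), and only numbers 2 and 4 correlated best with their own number, so the numbers do not show a pairing. The median log2 fold change with single libraries left out ran from -0.45 to -0.25 for mitochondrially encoded genes and from 0.07 to 0.18 for nuclear subunits, and that of nuclear complex III subunits turned to -0.03 with the length and GC offset and to 0.00 without Fpr2KO replicate 1. Estimates that changed sign were close to 0: with upper-quartile scaling Uqcrc2 (0.0099), Uqcrb (0.0159) and Atp5l (0.0046), with the strict filter Uqcrb (0.0013), and with the length and GC offset Cox7a2l (-0.0379), Atp5l (0.0795), Cox4i1 (-0.0487) and Atp5g2 (-0.0077). With single libraries left out, ranges that crossed 0 were -0.128 to 0.0559 for Ndufaf2, -0.102 to 0.0556 for Uqcrb, -0.108 to 0.0289 for Atp5l, -0.0278 to 0.0801 for Cox7a2l, -0.0063 to 0.264 for mt-Nd3, -0.0029 to 0.125 for Uqcrh, -0.0395 to 0.0062 for Uqcrc2 and -0.294 to 0.0616 for mt-Co2. Per kilobase of the longest transcript in place of joined exons, the WT level was 136.8 CPM for Uqcrh, 223 CPM for Cox7a2l and 172 CPM for Atp5a1, and Cox4i1 (265 CPM), Atp5b (239 CPM) and Ndufa7 (74.2 CPM) then stood first in complexes IV, V and I. Atp5b and Ndufa7 were chosen after their values were seen. The cause of these changes was not tested. The length and GC offset was chosen after the data were seen. Genes under about 5 CPM (mt-Nd4l, mt-Nd3, mt-Atp8, Cox6a2, Cox6b2, Cox4i2) rest on few reads, and intervals cover counting error only.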
